A study of Homo sapiens with 10 samples.

Results

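Gene expression in PC3 cells treated with GW-516 was compared with that in PC3 cells depleted of RNF2 by the hairpin RNF2 shRNA1, over all genes of the deposited count tables. The comparison rested on 4 of the 10 libraries of the series, 2 of each group, chosen by their labels alone and without the second RNF2 hairpin. Of 57445 genes in the tables, 18478 had enough counts to be tested. PC3 is an established human prostate cancer line from a bone metastasis that has little or no androgen receptor. The series, whose title concerns Polycomb repressive complex 1, stemness and immune suppression in metastatic prostate cancer without androgen receptor or neuroendocrine features, also holds Scramble shRNA, RNF2 shRNA2 and PRT4165 groups. RNF2 shRNA1 cells carried their hairpin stably, and Scramble shRNA cells carried a control hairpin in the same way. GW-516 cells were treated for 48 hours, and the labels give the compound only by this code name, with no dose. They describe neither a hairpin in the treated cells nor a vehicle group, so the compound, the hairpin with its vector and the separate cultures cannot be told apart in the differences given here.

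RNF2 (RING1B) is the main ubiquitin ligase subunit of Polycomb repressive complex 1, which marks histone H2A and helps to keep developmental genes silent. The other gene groups described here respond to the state of the cell. Sterol synthesis genes are switched on by the factor SREBP-2 when membrane cholesterol is low, amino acid synthesis genes by ATF4 under stress, antioxidant genes by NRF2, and genes of mitosis follow the share of cells that divide. Lipocalin 2 (LCN2), CDKN1A (the cell cycle inhibitor p21) and HMGCS1 (the enzyme that makes HMG-CoA for the sterol pathway) were set as markers of the comparison.

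Counts came from RNA sequencing of polyadenylated transcripts. The total count per library was 83917665 and 80652630 for GW-516 and 70116392 and 65877850 for RNF2 shRNA1. Levels are given as CPM (counts scaled to the library's size) after TMM normalization, and differences as log2 of GW-516 over RNF2 shRNA1; a number alone in parentheses after a gene's name, or after "differed by", is this log2 difference. A gene was called at an edgeR adjusted p below 0.05 over all genes tested. The 2 libraries of each group differed little beyond counting noise: the chi-square per degree of freedom between them was 2.19 for RNF2 shRNA1 and 2.198 for GW-516, against 6.89 and 12.2 for the PRT4165 and RNF2 shRNA2 pairs. Each fragment could be counted at both ends, and with counts halved the values for RNF2 shRNA1 and GW-516 were 1.09 and 1.099. Whether the libraries of a pair came from separate cultures is not given in the labels. The p-values reflect nothing but the scatter within the pairs of all 5 groups, possibly a technical one. That scatter includes the wider PRT4165 and RNF2 shRNA2 pairs. As a check of the cell line, the epithelial keratin KRT8 had 15856 and 14995 counts in the GW-516 libraries and 7240 and 6873 in the RNF2 shRNA1 libraries. The androgen receptor had 2 and 0 counts against 0 and 2, KLK3 (PSA) was at 0 in all 4 libraries, and CTNNA1, which PC3 is known to have lost, had 89 and 87 against 30 and 29. The libraries labelled RNF2 shRNA2 were no arm of the comparison but entered the filter on low counts, the normalization and the estimate of the spread (18260 genes were tested without them), and RNF2 was not lower in them (33.5 and 35.3 CPM) than in Scramble shRNA.

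RNF2 itself measured 26.9 and 28.1 CPM in the GW-516 libraries and 12.1 and 11.96 CPM in the RNF2 shRNA1 libraries. All GW-516 values were above all RNF2 shRNA1 values (log2 difference 1.19, SE 0.058, edgeR adjusted p = 5.5e-15), and Scramble shRNA had 30.6 and 28.3 CPM, so the knockdown label held in both RNF2 shRNA1 libraries. GW-516 differed from Scramble shRNA in RNF2 by -0.10, and RNF2 shRNA1 by -1.29. Its paralog RING1, the other ligase subunit, was at 11.9 and 12.4 CPM in GW-516 and 12.9 and 12.8 CPM in RNF2 shRNA1, and was not called (log2 difference -0.082, 95% interval -0.24 to 0.074). BMI1 (PCGF4), a partner of RNF2 in the canonical complex, was at 221 and 225 CPM against 232 and 230.0 CPM, with a log2 difference of -0.052 and an interval of -0.16 to 0.058. Gene lists are described by how many tested members were called, beside the share called among all genes, which was 61.4% in either direction, 31% higher and 30.4% lower. Among all 7 tested RING and PCGF core genes, RNF2 and PCGF6 (0.50) were higher in GW-516 and PCGF5 (-0.31) was lower. BMI1 was also called lower in a fit of the 4 libraries alone (edgeR adjusted p = 0.019), and PCGF3 higher with a filter of 1 CPM in 2 libraries (0.047). The CBX, PHC and variant subunits had 10 of 18 higher and 5 lower, and with each near-identical pair of libraries summed to 1 sample 6 were higher. BCORL1, a subunit of a variant complex, was higher by 1.20, while PHC1, a polyhomeotic subunit, was lower (-1.35). Of 11 PRC2 genes, which make the other Polycomb mark on histone H3, 9 were lower and 1 higher, among them PHF19 (-0.81), EZH1 (-0.70) and the methyltransferase EZH2. Without GW-516 replicate 1, and also with the pairs summed, 6 were lower and none higher. EZH2 had 53.3 and 50.9 CPM in the GW-516 libraries and 61.3 and 59.7 CPM in the RNF2 shRNA1 libraries (log2 difference -0.21, SE 0.041, edgeR adjusted p = 6.7e-05).

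**Figure D1:**
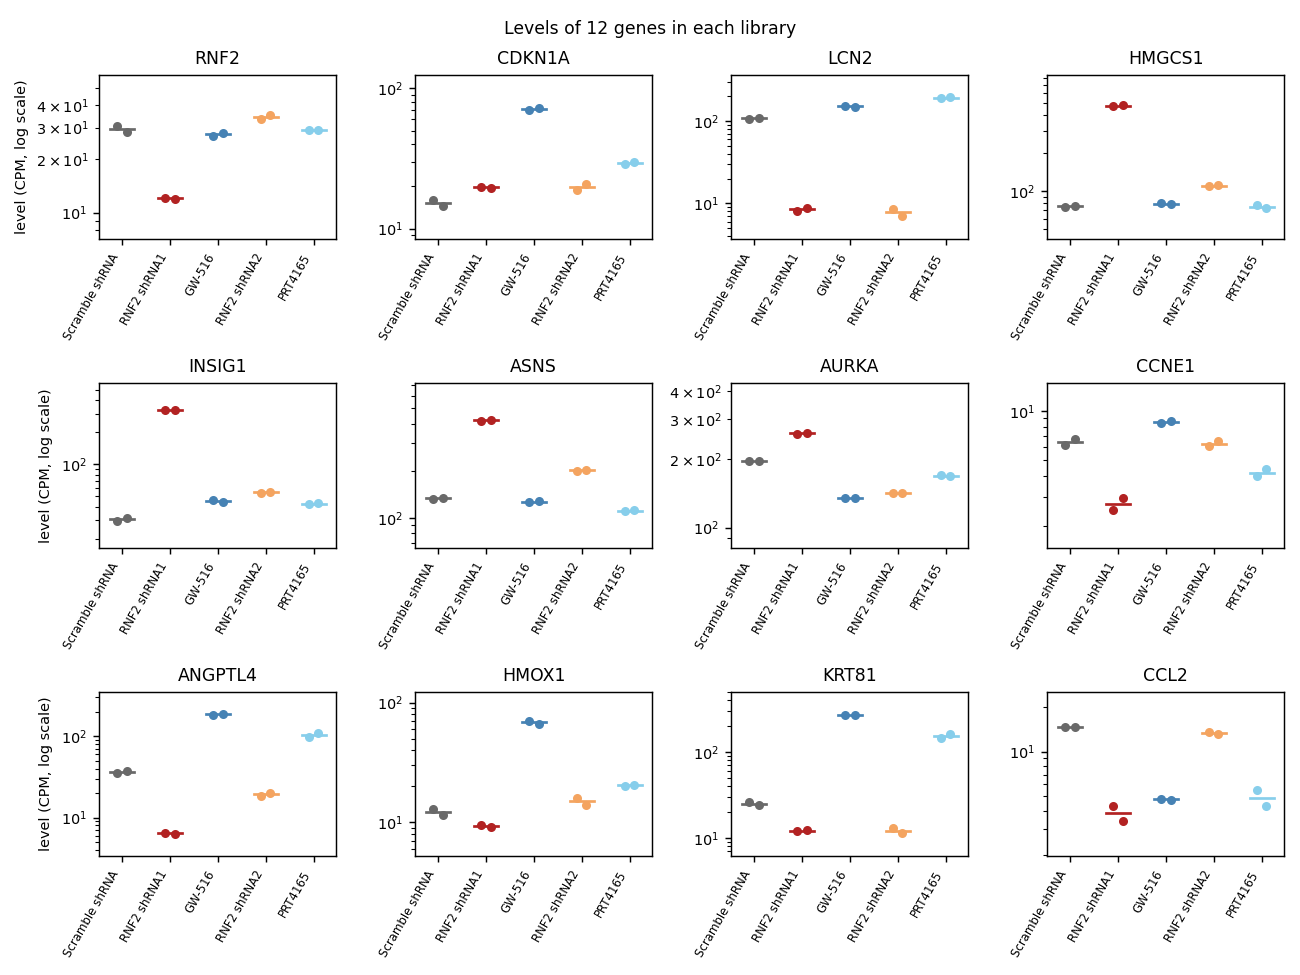
Level of 12 genes in each of the 10 libraries (points, CPM on log axes that differ between panels) with group means (bars), for 5 groups of 2 libraries. The points of a pair lie close together, RNF2 is lowest in RNF2 shRNA1 at 12.1 and 11.96 CPM, HMGCS1 and INSIG1 are highest there, and CDKN1A, ANGPTL4, HMOX1 and KRT81 are highest in GW-516.

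In all, 5727 genes were higher in GW-516 and 5622 lower, 61.4% of those tested. A difference of at least 2-fold was more often an increase: 1872 called genes were higher and 661 lower by that much. The median log2 difference over all genes was 0.017. The split differed with the level of the gene. Above 100 CPM, 603 genes were higher and 1462 lower, with a median of -0.17, while below 1 CPM 1180 were higher and 400 lower, with a median of 0.27. With the genes split by length into 4 classes, the longest had 1412 higher and 2055 lower in GW-516, and the shortest 1067 and 661. Of 990 lincRNAs, a class of long noncoding RNA, 334 were higher and 122 lower. The GW-516 libraries also detected more genes, 25920 and 25723 against 23555 and 23476, and 64 genes had at least 10 counts in both GW-516 libraries and none in both RNF2 shRNA1 libraries, against 3 genes the other way. A gene could pass the filter on low counts through the libraries of 1 group alone, and the side of its call was then partly set by that step. The part of this filter, of level and of depth in the group results was not tested. Thinning all libraries to the lowest total left 5679 genes higher and 5565 lower.

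**Figure D2:**
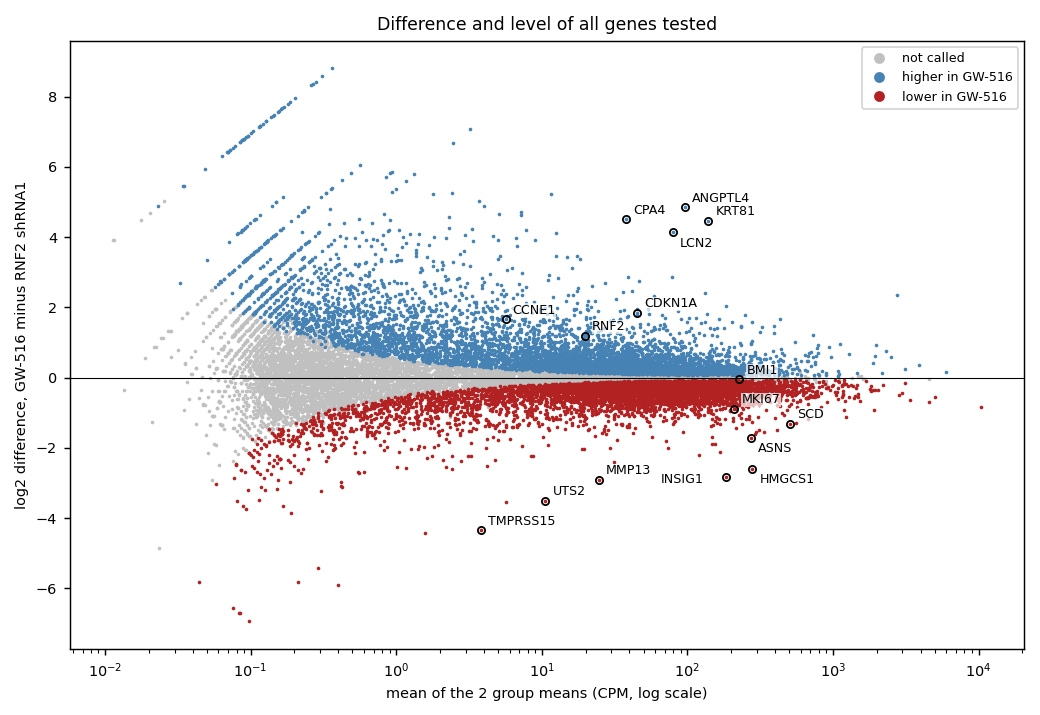
Log2 difference of GW-516 from RNF2 shRNA1 against the mean of both groups (CPM, log axis) for all 18478 genes tested, with called genes in color and 16 genes circled. Called genes higher in GW-516 (5727) spread upward at low levels, called genes lower in it (5622) are denser at high levels, and the streaks at the left edge are genes with very few counts.

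The comparisons of each group with Scramble shRNA share libraries with the main one and with each other. They are given side by side to show where the control lay. GW-516 differed from Scramble shRNA in 55.5% of genes, and RNF2 shRNA1 in 54.7%.

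Genes of sterol synthesis were lower in GW-516 than in RNF2 shRNA1. Of 24 tested genes of synthesis, uptake and feedback, 21 were lower and none higher, with a median of -1.24. HMGCS1 (chr5:43289497-43313614, GRCh37) had 79.6 and 78.3 CPM in the GW-516 libraries and 474 and 480.4 CPM in the RNF2 shRNA1 libraries. The groups did not overlap and differed 6.05-fold (log2 difference -2.60, SE 0.033, edgeR adjusted p = 4.1e-26). Scramble shRNA was at 75.2 and 76.2 CPM, near GW-516: the log2 difference from Scramble shRNA was 0.061 in GW-516 and 2.66 in RNF2 shRNA1. INSIG1, which holds the SREBP escort in the endoplasmic reticulum and is itself an SREBP target, had 46.2 and 43.9 CPM in the GW-516 libraries and 321 and 322 CPM in the RNF2 shRNA1 libraries, a log2 difference of -2.83. Lower genes were found in early and late steps of the pathway. MSMO1 (-2.13) removes methyl groups late in the pathway, IDI1 (-1.999) converts one isoprene unit into the other, SQLE (-1.61) oxidizes squalene and FDFT1 (-1.56) makes it. SREBF2, which encodes the SREBP factor of this pathway, was lower too (-1.24). EBP (-0.079) and PMVK (-0.036) were not called. The median over the same 24 genes was 0.22 for GW-516 against Scramble shRNA, with 14 genes higher and 5 lower, and 1.21 for RNF2 shRNA1 against it, with 21 higher and 1 lower.

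Fatty acid genes lay on the same side with smaller differences: 12 of 14 were lower, none was higher (1 was without GW-516 replicate 2, in a fit of the 4 libraries alone and with a filter of 1 CPM in 2 libraries), and the median was -0.56. SCD, which puts the double bond into saturated fatty acids, had 289.8 and 294 CPM in the GW-516 libraries and 725 and 720.3 CPM in the RNF2 shRNA1 libraries (-1.31). FASN, the fatty acid synthase, differed by -1.19, and ACSS2, which makes acetyl-CoA from acetate, by -1.15. The list's median was -0.13 in GW-516 and 0.50 in RNF2 shRNA1, each against Scramble shRNA. Genes of sterol export went the other way, with 5 of 7 higher and 1 lower. ABCA1, the cholesterol exporter of the plasma membrane, had 33.4 and 33.8 CPM in the GW-516 libraries and 3.62 and 2.85 CPM in the RNF2 shRNA1 libraries (log2 difference 3.37, SE 0.085, edgeR adjusted p = 1.4e-20), and Scramble shRNA lay between them at 13.7 and 12.6 CPM. ABCG4 was higher as well, on 61 counts against 10 over both libraries, and its call was lost without GW-516 replicate 2 (edgeR adjusted p = 0.062). NR1H2 (LXR beta) was lower (-0.27).

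**Figure D3:**
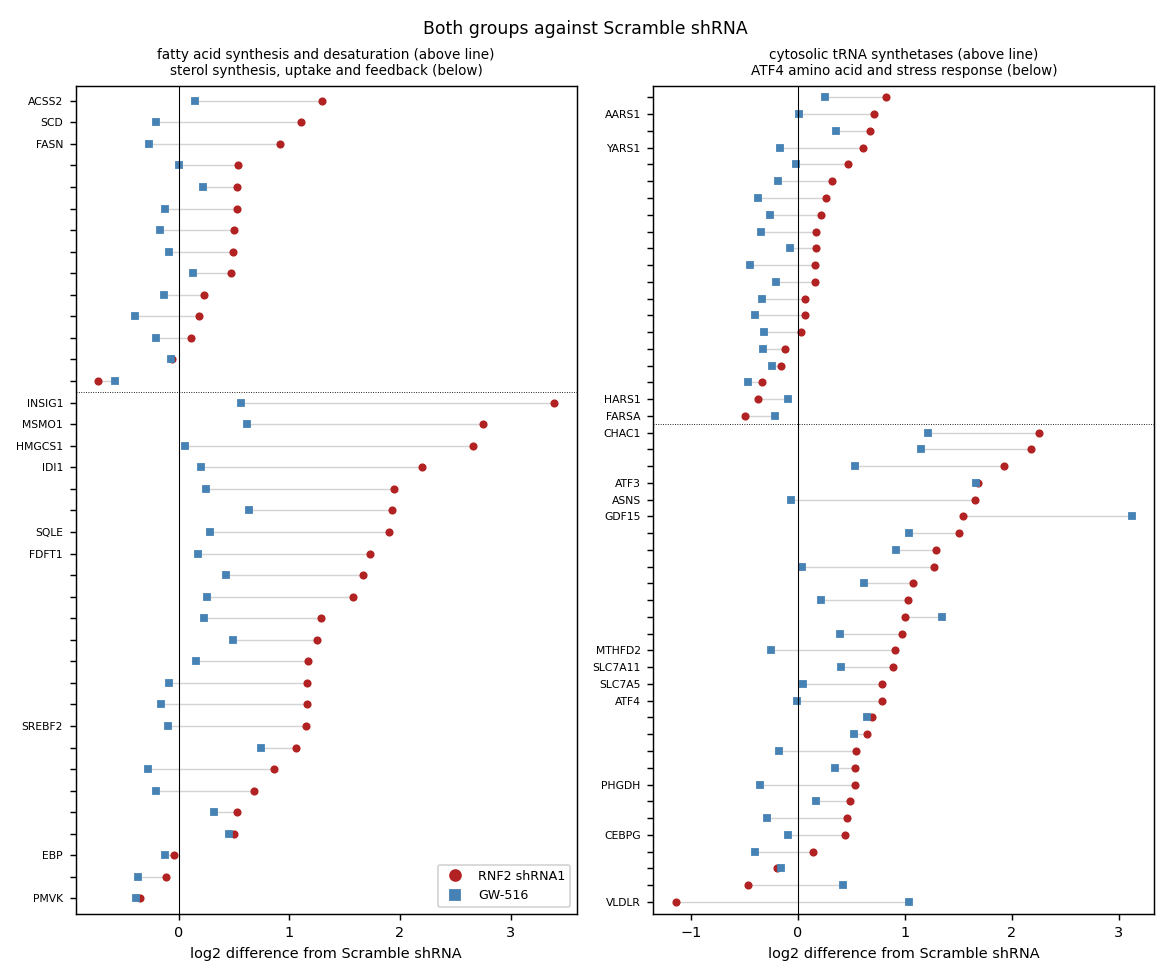
Log2 difference from Scramble shRNA of each tested member of the sterol and fatty acid lists (left) and of the ATF4 and tRNA synthetase lists (right), for RNF2 shRNA1 (circles) and GW-516 (squares), with grey lines joining the same gene and names given for the genes named in the text. HMGCS1 is at 0.06 in GW-516 and 2.66 in RNF2 shRNA1, and most squares lie left of their circles. GDF15, VLDLR, HARS1 and FARSA are among the exceptions.

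The ATF4 group, which holds amino acid synthesis and transport genes and stress factors, was also mostly lower in GW-516: 22 of 29 genes were lower and 4 higher, with a median of -0.53. ASNS, asparagine synthetase, had 128 and 128 CPM in the GW-516 libraries and 418 and 423 CPM in the RNF2 shRNA1 libraries (log2 difference -1.72, SE 0.029, edgeR adjusted p = 1.1e-23), and Scramble shRNA had 133 and 134 CPM. The mitochondrial folate enzyme MTHFD2 differed by -1.15, PHGDH, the first enzyme of serine synthesis, by -0.89, and the amino acid transporter SLC7A5 by -0.74. ATF4 messenger RNA was at 194 against 334 CPM (-0.79). GDF15, a secreted stress cytokine, was an exception, with 301 and 301 CPM in the GW-516 libraries and 104 and 98.5 CPM in the RNF2 shRNA1 libraries (1.57), and VLDLR differed by 2.18. GDF15 and VLDLR differed from Scramble shRNA in unlike ways: GDF15 by 3.12 in GW-516 and 1.55 in RNF2 shRNA1, VLDLR by 1.04 and -1.14. ATF3, a stress factor of the same list, was not called: it had 49.9 and 51.8 CPM in the GW-516 libraries and 50.3 and 52.7 CPM in the RNF2 shRNA1 libraries, a log2 difference of -0.018 with an interval of -0.12 to 0.082, while Scramble shRNA had 16.3 and 15.7 CPM. Against Scramble shRNA, 17 of the 29 genes were higher in GW-516 and 25 in RNF2 shRNA1, with medians of 0.39 and 0.89.

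Cytosolic tRNA synthetases, which charge tRNAs with amino acids, were lower in 18 of 20 cases (median -0.44). YARS1 was lower by the most (209 and 208 CPM against 353 and 361 CPM, -0.78), AARS1 differed by -0.70, and the 2 that were higher, HARS1 and FARSA, differed by 0.27 and 0.27. ER chaperones were split, 6 higher and 10 lower of 18, and 3 were higher with the near-identical pairs summed. HSPA5 (BiP) was at 1118 against 1668 CPM (-0.58) and HSP90B1 differed by -0.56, while the lectin chaperone CANX was higher (0.40). Of 18 heat shock chaperones 6 were higher and 5 lower. The count of lower chaperones was 9 in a fit of the 4 libraries alone and also without the libraries labelled RNF2 shRNA2, and 3 with the near-identical pairs summed. The small heat shock protein HSPB8 differed by 1.67.

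Promoters of the ATF4 and synthetase genes were searched for the letters TGATGNAA on both strands, a form of the site that ATF4 and C/EBP proteins are known to bind. RefSeq promoters (GRCh38.p14, 300 bases, 250 of them before the start) were matched by symbol for 24 of 29 ATF4 genes and 16 of 20 synthetases. The letters were in 7 of the 24 (29.2%) and 7 of the 16 (43.8%), against 3.04% of 12064 tested genes with a promoter. The stretches shown are a selection of those around matches ahead of the start. Matches ahead of the start in FGF21, GARS1 and IARS1 are not shown. The stretches run 5′ to 3′ on the gene's strand, with the match in capitals and the other strand's form of the letters where the match lies on it. Those of ASNS, CHAC1 and AARS1 overlap an exon of some transcript in GENCODE 29, and those of ATF3 and CEBPG overlap none.
ASNS, chr7:97872458-97872487 (-): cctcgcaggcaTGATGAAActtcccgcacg
CHAC1, chr15:40953251-40953280 (+): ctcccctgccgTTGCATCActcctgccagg
AARS1, chr16:70289675-70289704 (-): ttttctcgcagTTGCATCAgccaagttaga
ATF3, chr1:212565205-212565234 (+): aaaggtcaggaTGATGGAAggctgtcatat
CEBPG, chr19:33374060-33374089 (+): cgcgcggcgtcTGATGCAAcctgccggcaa
Of these genes ASNS (-1.72), CHAC1 (-1.03), AARS1 (-0.70) and CEBPG (-0.53) were lower in GW-516, and ATF3 was not called. For the sterol list, promoters were matched for 18 of 25 genes. The letters TCACNCCAC (the core of a sterol regulatory element) were in 1 of these 18, that of SREBF2. They were in 2 of 13 fatty acid promoters (15.4%) and in 1.48% of tested genes. A match is only a description of these letters in this window.

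Cell cycle genes split by phase. Of 35 genes of mitosis and G2/M, 34 were lower in GW-516 and 1, MYBL2 (0.69), was higher, with a median of -0.71. AURKA, the centrosome kinase, had 135 and 135 CPM in the GW-516 libraries and 258 and 262 CPM in the RNF2 shRNA1 libraries (log2 difference -0.95, SE 0.029, edgeR adjusted p = 4.7e-19). DLGAP5 (-1.03) and TPX2 (-0.75) act on the spindle, KIF2C (-0.95) is a kinesin that takes microtubules apart, and MKI67 (-0.88) is the common proliferation marker. DNA replication and G1/S genes had 18 of 37 higher and 12 lower, with a median of 0.082, and 11 were higher with the near-identical pairs summed. The cyclin genes CCNE1 and CCNE2, which start S phase, were the most different of that list. CCNE1 had 8.42 and 8.68 CPM in the GW-516 libraries and 2.49 and 2.93 CPM in the RNF2 shRNA1 libraries (log2 difference 1.66, SE 0.11, edgeR adjusted p = 2.7e-12), and CCNE2 differed by 1.02. Most other members lay close together, such as MCM3 (0.27), MCM7 (-0.23) and RRM1 (-0.27). Against Scramble shRNA the replication list had nearly the same median in both groups, -0.63 in GW-516 and -0.63 in RNF2 shRNA1. The mitosis list had -0.57 in GW-516, where all 35 genes were lower, and 0.16 in RNF2 shRNA1, where 23 were higher and 7 lower. In bulk RNA, fewer cells in a phase and less of these transcripts per cell cannot be told apart.

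**Figure D4:**
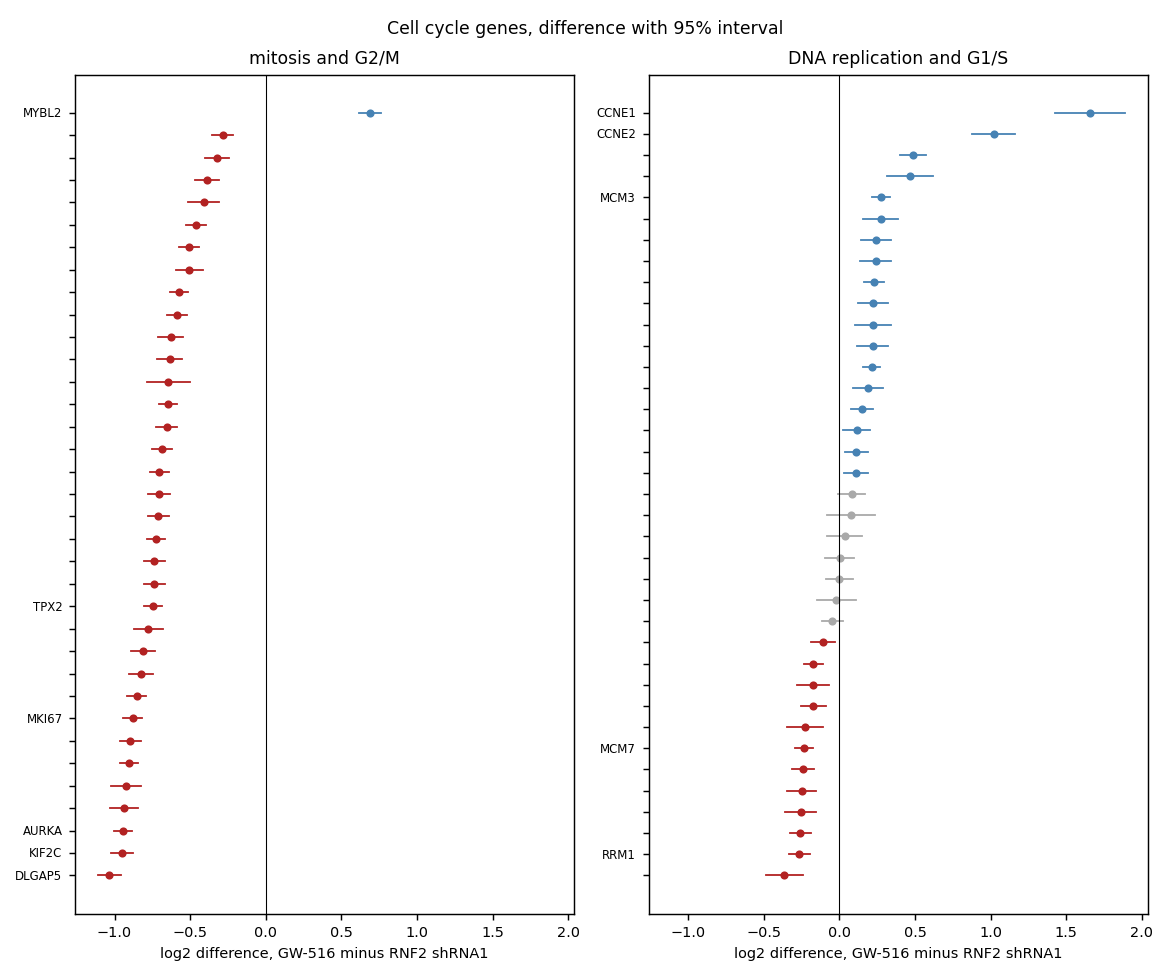
Log2 difference of GW-516 from RNF2 shRNA1 with 95% interval for the 35 genes of mitosis and G2/M (left) and the 37 genes of DNA replication and G1/S (right), blue where called higher, red where called lower and grey where not called, with names given for the genes named in the text. MYBL2 at 0.69 is the only blue point on the left, and CCNE1 at 1.66 heads the list on the right.

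CDKN1A (chr6:36644305-36655116, GRCh37) had 69.6 and 72.4 CPM in the GW-516 libraries and 19.8 and 19.5 CPM in the RNF2 shRNA1 libraries, a 3.61-fold difference (log2 difference 1.85, SE 0.055, edgeR adjusted p = 3.8e-19). Every GW-516 value was above every RNF2 shRNA1 value. Its difference from Scramble shRNA was 2.21 in GW-516 and 0.36 in RNF2 shRNA1. The list of cell cycle inhibitors and p53 targets, CDKN1A included, had 10 of 30 higher and 13 lower, with a median of -0.084. TP53I3 (1.501) was higher, and CCNG1 (-1.18), the inhibitor CDKN1B (-0.58) and PMAIP1, which encodes the death factor NOXA (162 and 166 CPM against 461 and 454 CPM, -1.48), were lower. MDM2, a p53 target, was at 50.8 against 51.0 CPM and not called. CDKN2A (p16 and ARF) had 106 and 107 CPM in the GW-516 libraries and 162 and 156 CPM in the RNF2 shRNA1 libraries (log2 difference -0.58, SE 0.19, edgeR adjusted p = 0.041). That call was lost in 8 of 15 alternatives, among them each of the 4 that left out a library, with edgeR adjusted p from 0.112 to 0.143 there and 0.39 with the near-identical pairs summed.

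LCN2, an iron-scavenging defence protein (chr9:130911350-130915734, GRCh37), had 152 and 148 CPM in the GW-516 libraries and 8.14 and 8.93 CPM in the RNF2 shRNA1 libraries, 17.6-fold apart (log2 difference 4.14, SE 0.062, edgeR adjusted p = 9.4e-20). Scramble shRNA had 106 and 109 CPM, so GW-516 lay above it by 0.48 and RNF2 shRNA1 below it (-3.66). The list of epithelial defence genes, LCN2 included, had 10 of 13 tested members higher and 2 lower, with a median of 2.42. The protease inhibitors PI3 (elafin; 139 against 18.8 CPM, 2.88) and SLPI (222 against 41.4 CPM, 2.42) and complement C3 (31.8 against 2.87 CPM, 3.47) were among them. The acute phase gene SAA1 rested on 202 and 193 counts against 2 and 4, and shares near-identical sequence with SAA2. CD55, which protects cells from complement, was higher by 0.93 and CD59, with a like role, was lower (-0.41). Against Scramble shRNA the list's median was 0.93 in GW-516, with 9 genes higher and 1 lower, and -1.90 in RNF2 shRNA1, with 3 higher and 9 lower. The other 9 of the 22 listed genes had too few counts to be tested.

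Chemokines, cytokines and their receptors had 21 of 29 higher and 5 lower in GW-516, with a median of 0.82. CCL20, which draws cells with the receptor CCR6, had 6.44 and 6.08 CPM in the GW-516 libraries and 0.352 and 0.312 CPM in the RNF2 shRNA1 libraries (4.23). The neutrophil chemokine CXCL8 (interleukin 8) had 153 and 156 CPM in the GW-516 libraries and 57.2 and 59.1 CPM in the RNF2 shRNA1 libraries (log2 difference 1.41, SE 0.039, edgeR adjusted p = 8.9e-20). IL1B, a main inflammatory cytokine, was at 236 and 229 CPM against 85.0 and 89.1 CPM (1.42), IL11 differed by 2.58 and CSF1, the macrophage growth factor, by 2.38. IL18 was lower (-0.72). CSF3 had 156 and 157 counts against 4 and 2, a ratio of 43.1 with a counting interval of 19.6 to 118.4. All counting intervals given here treat each count as independent. They are too narrow where both ends of a fragment were counted. CCL2, the monocyte chemokine, had 4.82 and 4.74 CPM in the GW-516 libraries and 4.31 and 3.38 CPM in the RNF2 shRNA1 libraries, a 1.24-fold difference (log2 difference 0.31, SE 0.12, edgeR adjusted p = 0.028) beside Scramble shRNA at 14.6 and 14.7 CPM. Its call was lost without RNF2 shRNA1 replicate 2 (log2 difference 0.15, edgeR adjusted p = 0.37), without GW-516 replicate 1 (0.097) or 2 (0.071), and with the near-identical pairs summed (0.13). NF-kB subunits and targets were split, 7 higher and 6 lower of 19, with BIRC3 (-1.34) and RELB (-1.31) lower and the adaptor TNIP1 (0.93) higher.

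Immediate early genes, which are switched on within minutes of a signal, were higher in 13 of 21 cases and lower in 3, with a median of 0.35. At an edgeR adjusted p below 0.01, 10 were higher and 2 lower. Both counts were also smaller with the near-identical pairs summed and without GW-516 replicate 1. FOS had 12.2 and 13.7 CPM in the GW-516 libraries and 1.64 and 1.64 CPM in the RNF2 shRNA1 libraries (2.98), FOSB differed by 2.35 and JUN by 1.05, while FOSL1 was lower (-0.92). Feedback regulators of MAP kinases had 6 of 16 higher and 9 lower. DUSP1, a MAP kinase phosphatase, was at 57.8 against 15.2 CPM (1.92), and PHLDA1 differed by -0.76.

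Interferon-stimulated genes leaned to lower values in GW-516, with 22 of 36 lower and 8 higher (median -0.32). DDX60, a helicase of the antiviral response, had 64.7 and 67.0 CPM in the GW-516 libraries and 245 and 245 CPM in the RNF2 shRNA1 libraries (log2 difference -1.90, SE 0.037, edgeR adjusted p = 1.2e-22). HERC5, the ligase that attaches ISG15, differed by -1.13 and OASL by -0.90, while OAS1 (0.76) and SAMD9 (0.60) were higher. Against Scramble shRNA the list's median was -0.053 in GW-516 and 0.24 in RNF2 shRNA1. MHC class I and immunoproteasome genes had 4 of 20 higher, 7 lower and 9 not called. PSME1, an activator of the proteasome, differed by -0.57 and TAPBP (tapasin) by -0.74. B2M, the invariant chain, was at 661 against 687 CPM and not called. The 4 higher genes dropped to 2 with any 1 of the 4 libraries left out, with DESeq2 and at an adjusted p below 0.01, and to 1 with the near-identical pairs summed.

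Hypoxia and glycolysis genes were higher in GW-516 in 28 of 31 cases and lower in 1, PFKM (-0.28), with a median of 0.75. NDRG1, a known target of hypoxia, had 4615 and 4600.5 CPM in the GW-516 libraries and 897 and 899.7 CPM in the RNF2 shRNA1 libraries (log2 difference 2.36, SE 0.022, edgeR adjusted p = 6.4e-29). PFKFB4 (2.47) sets the level of the activator of phosphofructokinase, SLC2A1 (GLUT1; 211 against 60.1 CPM, 1.81) brings in glucose and SLC16A3 (MCT4; 1.44) exports lactate. The carbonic anhydrase CA9 differed by 1.70 and ADM (adrenomedullin) by 1.89. Genes of the core pathway differed less, such as LDHA (0.75), PKM (0.58) and GAPDH (0.35). Scramble shRNA lay between the groups: the list's median against Scramble shRNA was 0.11 in GW-516 (20 higher, 6 lower) and -0.48 in RNF2 shRNA1 (2 higher, 26 lower). NDRG1 differed from Scramble shRNA by 1.91 and -0.45 in that order.

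ANGPTL4, a secreted inhibitor of lipoprotein lipase and a target of both hypoxia and PPAR factors, had 184 and 187 CPM in the GW-516 libraries and 6.53 and 6.33 CPM in the RNF2 shRNA1 libraries, 28.8-fold apart (log2 difference 4.85, SE 0.063, edgeR adjusted p = 3.8e-23). Scramble shRNA lay between them at 35.6 and 37.9 CPM. Of 17 PPAR genes of lipid use, 10 were higher and 3 lower, with a median of 0.33. The lipid droplet coat gene PLIN2 had 419 and 412 CPM in the GW-516 libraries and 137 and 139 CPM in the RNF2 shRNA1 libraries (1.59), the fatty acid carrier FABP4 differed by 0.87, PDK4 by 0.70 and CPT1A, the gate of fatty acid entry into mitochondria, by 0.54. The beta oxidation gene HADHA was lower (-0.26). Against Scramble shRNA the list's median was 0.072 in GW-516 and -0.12 in RNF2 shRNA1.

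NRF2 genes of antioxidant defence had 18 of 23 higher and 3 lower in GW-516, with a median of 0.42. HMOX1, heme oxygenase, had 69.7 and 66.8 CPM in the GW-516 libraries and 9.46 and 9.25 CPM in the RNF2 shRNA1 libraries (log2 difference 2.87, SE 0.065, edgeR adjusted p = 1.7e-21), and its differences from Scramble shRNA were 2.47 in GW-516 and -0.39 in RNF2 shRNA1. The ferritin light chain FTL was at 983 against 603 CPM (0.70), NQO1 differed by 0.62 and the glutathione enzyme GCLM by 0.85. The aldo-keto reductases AKR1C1 (24.9 and 22.7 CPM against 1.48 and 1.26 CPM, 4.11), AKR1C3 (2.33) and AKR1B10 (3.98) were among them, but AKR1C genes are near-identical copies, so the split of reads among them is uncertain. AKR1C2 had 46 and 44 counts against 0 and 0, which is 24.8-fold if 3 counts over both RNF2 shRNA1 libraries are taken as the floor. The lower limit of its counting interval is 19.8. SLC7A11 (-0.49), which also belongs to the ATF4 list, and TXNRD1 (-0.24) were lower. Against Scramble shRNA 19 of the 23 genes were higher in GW-516 and none lower, and in RNF2 shRNA1 10 were higher and 6 lower.

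Of 7 metallothionein and zinc genes 5 were higher and 1 lower. MT2A, a metal-binding protein, had 299 and 295 CPM in the GW-516 libraries and 71.3 and 73.5 CPM in the RNF2 shRNA1 libraries (2.04), MT1X differed by 2.91 and the zinc exporter SLC30A1 by 1.08, while the zinc importer SLC39A10 was lower (-1.44). MT1 genes are near-identical copies too. Aryl hydrocarbon receptor targets did not share a side: CYP1B1 (178 against 283 CPM, -0.67) and TIPARP (-0.63) were lower, CYP1A1 (1.97, at 1.10 against 0.280 CPM) was higher, and 3 of 10 were higher and 2 lower in all.

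Epithelial junction and keratin genes had 19 of 25 higher and 2 lower, with a median of 0.44. KRT81, a hair keratin, had 268 and 266 CPM in the GW-516 libraries and 11.9 and 12.2 CPM in the RNF2 shRNA1 libraries (log2 difference 4.47, SE 0.059, edgeR adjusted p = 1.3e-20), and it has a near-identical neighbour, KRT87P (4.67), so the split of reads between them is uncertain. KRT19 was at 783 against 496 CPM (0.66), KRT8 differed by 0.75, the junction protein JUP by 1.41 and E-cadherin (CDH1) by 1.10. EPCAM, 1 of the 2 lower genes, differed by -0.10. No gene of the list was lower without GW-516 replicate 2, without RNF2 shRNA1 replicate 2, with the pairs summed, under the other filters on low counts or at an adjusted p below 0.01. Mesenchymal and matrix genes were mixed, with 18 of 32 higher, 11 lower and a median of 0.40. Fibronectin (FN1) had 68.9 and 71.2 CPM in the GW-516 libraries and 21.1 and 19.6 CPM in the RNF2 shRNA1 libraries (1.78), the collagen cross-linker LOXL2 differed by 1.22 and tenascin (TNC) by 0.86. CCN1 (CYR61), a target of the YAP factor, was lower with 70.1 and 68.9 CPM in the GW-516 libraries and 221 and 229 CPM in the RNF2 shRNA1 libraries (-1.69), as were CCN2 (-1.31), COL5A2 (-1.35), ZEB1 (-0.74) and vimentin (VIM, -0.54). TGFBI had 77 and 88 counts against 0 and 2, a ratio of 68.2 with a counting interval of 18.6 to 567.6.

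Proteases of invasion and their inhibitors had 16 of 23 higher and 6 lower. MMP13, a collagenase, had 5.57 and 6.06 CPM in the GW-516 libraries and 44.7 and 42.4 CPM in the RNF2 shRNA1 libraries (log2 difference -2.90, SE 0.077, edgeR adjusted p = 2.3e-19), and its difference from Scramble shRNA was -2.80 in GW-516 and 0.11 in RNF2 shRNA1. PLAU (urokinase) was lower (-0.91), while its receptor PLAUR was higher (1.01). TIMP1, which blocks metalloproteases, was at 658 and 666 CPM against 209 and 207 CPM (1.67), and SERPINB5 (maspin) differed by 1.21. Among stemness markers 11 of 24 were higher and 5 lower (3 with the near-identical pairs summed or without GW-516 replicate 1). ITGA2, a collagen-binding integrin, had 383 and 392 CPM in the GW-516 libraries and 113 and 111 CPM in the RNF2 shRNA1 libraries (1.79), ITGB4 differed by 1.39 and CD44 by 0.19, while ALDH1A3, an aldehyde dehydrogenase, was lower with 767 and 767 CPM against 1688 and 1665 CPM (-1.13).

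Developmental regulators known as Polycomb targets had 18 of 32 tested members higher and 7 lower, with a median of 0.24. The other 16 of the 48 listed had too few counts. SOX9 was at 124 and 124 CPM against 77.6 and 77.3 CPM (0.68), MSX1 differed by 0.82 and MEIS1 by 0.94. Both HOXB13 (201 against 333 CPM, -0.73), a prostate lineage factor, and SOX21 (-1.32) were lower. The members with the highest log2 difference, HOXA5 (2.40) and HOXA7 (1.82), were at no more than 1.000 CPM in GW-516. Against Scramble shRNA 13 of the 32 were higher and 6 lower in GW-516, and 7 higher and 12 lower in RNF2 shRNA1. Replication-dependent histone genes, which polyadenylated libraries catch poorly and which are near-identical copies, were higher in 9 of 9 cases, with H2BC12 at 95.9 against 49.0 CPM (0.97) and H4C8 at 26.5 against 6.96 (1.93). Both groups had all 9 higher than Scramble shRNA, with medians of 2.10 in GW-516 and 0.97 in RNF2 shRNA1.

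Lysosome and proton pump genes had 21 of 33 higher and 6 lower (median 0.24). ATP6V0A4, a membrane subunit of the proton pump, had 14.8 and 14.8 CPM in the GW-516 libraries and 1.06 and 0.546 CPM in the RNF2 shRNA1 libraries (4.19). The cathepsins CTSL (1.47) and CTSD (1.13) were higher, SQSTM1 (p62) differed by 0.60, and the cholesterol transporter NPC1 was lower (-0.84), opposite to most of the list. Ribosomal protein genes, which are abundant, were lower in 39 of 45 cases and higher in none, with a median of -0.31 that sits beside the median of -0.17 for all genes above 100 CPM. Both GW-516 values were below both RNF2 shRNA1 values for all 45, but the share of all tested genes separated in this way is not given here. Of all genes above 100 CPM, 59.2% were called lower. Mitochondrially encoded genes were lower in 10 of 15 cases and higher in none (median -0.50). They took 2.25% and 2.26% of counts in GW-516, 3.24% and 3.23% in RNF2 shRNA1 and 2.47% and 2.51% in Scramble shRNA. MT-RNR2 alone took 0.785% and 0.785% in GW-516, 1.30% and 1.29% in RNF2 shRNA1 and 0.640% and 0.650% in Scramble shRNA. The list's median against Scramble shRNA was -0.40 in GW-516 (1 higher, 11 lower) and -0.022 in RNF2 shRNA1 (5 higher, 4 lower).

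**Figure D5:**
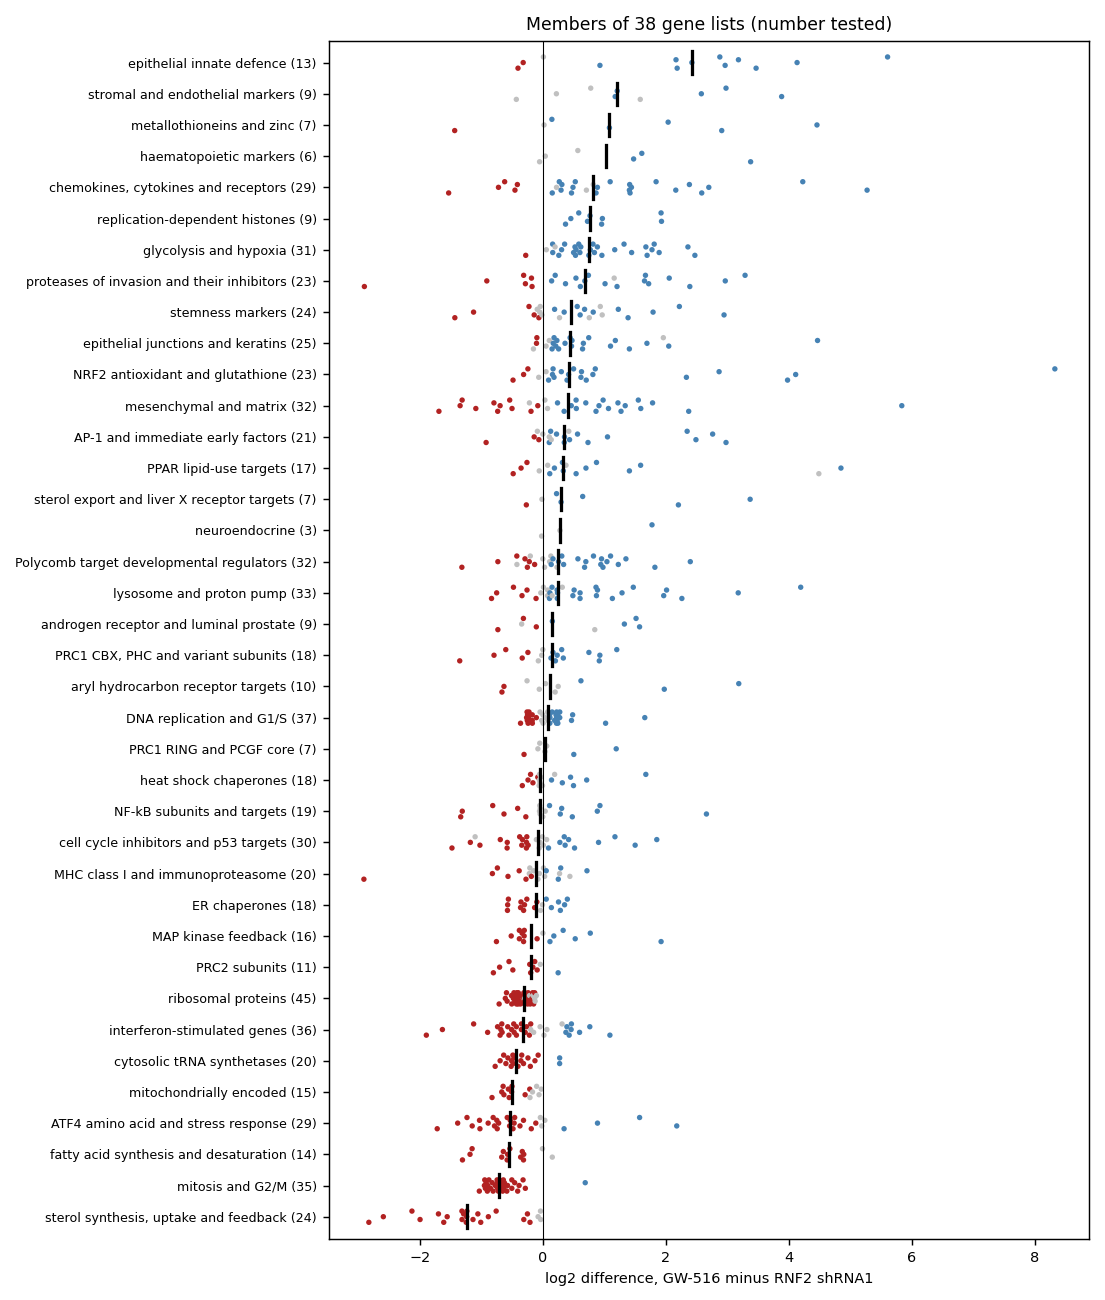
Log2 difference of GW-516 from RNF2 shRNA1 for every tested member (points) of 38 gene lists, sorted by the list's median (black bars), blue where called higher, red where called lower and grey where not called. Sterol synthesis has the lowest median at -1.24, with mitosis at -0.71 next, and epithelial innate defence has the highest at 2.42.

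The 15 largest increases among called genes of at least 5 CPM in a group were 16.4-fold to 135.8-fold, with edgeR adjusted p of at most 2.3e-12. Besides ANGPTL4, LCN2, KRT81, CCL20, AKR1C1, ATP6V0A4 and KRT87P they were SIRLNT, C15orf48, STC1, LYPD3, ARC, CPA4, ANGPT1 and MUC5AC. CPA4, a carboxypeptidase, had 72.7 and 71.8 CPM in the GW-516 libraries and 3.42 and 2.88 CPM in the RNF2 shRNA1 libraries (4.52), with Scramble shRNA at 2.46 and 2.33 CPM. STC1 (stanniocalcin, 4.90) is a secreted hormone, ARC (4.64) an immediate early gene of neurons, MUC5AC (4.03) a mucin and LYPD3 (4.71) a surface protein of epithelia. ANGPT1, which signals to blood vessels, had 5.66 and 5.47 CPM in the GW-516 libraries and 0.293 and 0.374 CPM in the RNF2 shRNA1 libraries (4.06) and 3.66 and 4.17 CPM in Scramble shRNA, so GW-516 lay little above the control (0.51) and RNF2 shRNA1 well below it (-3.55). SIRLNT, a long noncoding RNA, had 553 and 548 counts against 0 and 6, a ratio of 151.6 with a counting interval of 69.4 to 414.1.

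The 15 largest decreases were 4.11-fold to 20.4-fold, with edgeR adjusted p of at most 7.0e-11. Besides INSIG1, HMGCS1, MSMO1 and MMP13 they were TMPRSS15, PKHD1, UTS2, TMEM178A, RELN, GUCA1B, LONRF1, NPTX1, ALMS1-IT1, FGFBP1 and THBS3. TMPRSS15, an enterokinase of the gut, had 0.375 and 0.332 CPM in the GW-516 libraries and 7.31 and 7.19 CPM in the RNF2 shRNA1 libraries (-4.35), and Scramble shRNA was at 10.997 and 10.9 CPM. There GW-516 was the group far from the control (-4.95 against -0.60 for RNF2 shRNA1). UTS2, the peptide urotensin, showed the other pattern with 1.68 and 1.73 CPM in the GW-516 libraries and 19.5 and 19.3 CPM in the RNF2 shRNA1 libraries (-3.51): its differences from Scramble shRNA were -0.55 in GW-516 and 2.96 in RNF2 shRNA1. The matrix protein RELN (-2.40; 0.14 and 2.54) and FGFBP1, which carries fibroblast growth factors (-2.20; 0.044 and 2.25), were like UTS2 in this.

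By chromosome, X had the highest median log2 difference, 0.17 over 583 tested genes, with 39.97% higher and 19.4% lower, and the others lay between -0.089 and 0.082. In 252 windows of 50 neighbouring genes of at least 1 CPM, medians ran from -0.34 to 0.27. The highest window lay at chr12:52416616-56150911 (GRCh37), from NR4A1 to GDF11, which spans the keratin cluster with KRT81, and had 29 higher and 17 lower.

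Markers of other cell types were low in both groups. The 16 haematopoietic markers summed to 2.94 and 3.11 CPM (without TMM scaling) in GW-516 and 1.18 and 1.17 in RNF2 shRNA1, with 7 of 16 at 0 in each GW-516 library. PTPRC (CD45), which marks all leukocytes, had 2 and 8 counts against 4 and 4. The 3 called markers, all higher in GW-516, were ITGAM (61 and 50 counts against 6 and 2), ITGAX (1.61) and LYZ (1.48). The call of LYZ was lost with the near-identical pairs summed. ITGAM had at most 6 counts in each library outside GW-516. Neither it nor DES of the stromal list (24 and 24 counts against 4 and 2) would have passed the main filter without GW-516. Their calls as higher were thus partly set by that step. A filter of 1 CPM in 2 libraries left none of the haematopoietic list to be tested. Of 13 stromal and endothelial markers 9 were tested and 5 were higher (3 of 4 tested with that filter), and the list summed to 17.6 and 17.2 CPM against 6.4 and 6.16. KDR, a VEGF receptor, held the largest share of it in GW-516, with 6.31 and 6.22 CPM in the GW-516 libraries and 0.499 and 0.343 CPM in the RNF2 shRNA1 libraries, and FAP (1.21) and TEK (1.18) were higher too. Androgen receptor and luminal genes had 4 of 9 tested higher and 3 lower, among them SLC45A3 (1.52) and FKBP5 (-0.32), and of 12 neuroendocrine genes 3 were tested and 1, the glycolytic enzyme ENO2 (1.77), was higher; DLL3 was called higher too with no filter, in the 4 libraries alone and without the libraries labelled RNF2 shRNA2. The part of other cells in the chemokine and matrix differences was not tested.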

How the data were processed

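Per the labels' protocols, PC3 cells carried hairpins stably or were treated with compounds for 48 hours, and total RNA was made into stranded messenger RNA libraries with paired-end reads. What the authors deposited is a table of raw counts for each library. Per the file headers the counts were made with featureCounts 1.4.3-p1, reverse-strand counting and GENCODE 18 genes, with no option for read pairs, so both ends of a fragment could be counted, and in the 4 libraries compared 67.6% to 67.9% of genes with 1 to 10 counts had an even number. Per the file headers the alignments of all 10 libraries have short names starting with MDV3, and those of GW-516 hold Th4; neither short name is explained there, so cells and compound keep the names of the labels. The submitters' processing notes name hg19 (GRCh37), STAR and DESeq2 1.8.1 without saying what each did. The treatment of reads with several matches, not given in the sources used here, leaves near-identical copies uncertain.

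Of 57445 gene identifiers 51812 (90.2%) had a symbol in GENCODE 29 and gene name tables. The test was edgeR 4.0.16 (R 4.3.3): TMM factors, filterByExpr with a minimum count of 10, a mean for each of the 5 groups fitted to all 10 libraries, leaving 5 degrees of freedom, and two-sided quasi-likelihood tests (robust), with Benjamini-Hochberg adjustment across the 18478 genes. The code was tested on simulated data. Total counts were 65877850 to 108380198 per library.

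Members and lists were chosen with earlier results of these data known. The 38 lists hold 883 entries, 9 of them unmatched, and were given no set test. Named by rule were LCN2, HMGCS1, CDKN1A, CDKN2A, ATF3, CCL2, EZH2, BMI1, RING1 and RNF2; the called genes with the 15 highest and the 15 lowest log2 differences, if they had a symbol, at least 5 CPM in 1 group and groups that did not overlap; and from each list the 6 or fewer members of smallest adjusted p. Other list members named as exceptions, extremes or well-known members were chosen after their values were seen, and so was the motif search in the synthetase promoters. Alternatives were RLE factors, DESeq2 1.42.0, limma-voom (limma 3.58.1), other filters and thresholds, fits of fewer libraries, replicate number as a block, near-identical pairs of Scramble shRNA, RNF2 shRNA1 and GW-516 summed, thinned counts and each library left out. With the pairs summed, only PRT4165 and RNF2 shRNA2 kept 2 libraries each. The spread in that run came from those groups and from neither arm, so calls lost there do not measure scatter within the arms. Motifs and figures used Python 3.11.15 and matplotlib 3.10.9. Some genes and a chromosome window are not reported here.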

Additional observations from a re-analysis of the deposited data

How the results depend on the processing

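The number of genes called higher ran from 4164 (near-identical pairs summed to 1 sample) to 6238 (the 4 libraries alone), and that called lower from 4280 to 6056. Of the 11349 calls, 8382 were kept with the pairs summed. Leaving out each of the 4 libraries in turn gave 5001 to 5058 higher and 4887 to 4995 lower, and 1695 to 1775 higher and 562 to 594 lower by at least 2-fold; where an arm had 1 library, it was assumed to vary like the other groups. The counts of 2-fold differences fell from 1872 and 661 to 1075 and 350 with a filter of 1 CPM in 2 libraries, which tests fewer rare genes. With replicate number as a block, calls were 5671 higher and 5576 lower, of which 1844 and 646 reached 2-fold, and CDKN2A lost its call. Deviations of same-numbered GW-516 and RNF2 shRNA1 libraries correlated at 0.013 over 13104 genes, and those of RNF2 shRNA2 and PRT4165 at -0.12. With pairs as close as those of GW-516 and RNF2 shRNA1, a value near 0 cannot show whether the same number marks a shared batch. Of 246 genes named by rule, 235 were called, and 227 of these kept side and call in each alternative run. The 12 reversals touched 5 genes that were not called. With each library left out in turn, PTPRC ran from -1.35 to 0.64 (above 0 without GW-516 replicate 1), ATF3 from -0.055 to 0.021 (0.014 without GW-516 replicate 1), SCG2 from -0.26 to 0.19 (0.0086 without RNF2 shRNA1 replicate 1), CD14 from -0.13 to 1.05 and CD68 from -0.22 to 0.31 (-0.18 without RNF2 shRNA1 replicate 2). With the 1 CPM filter ATF3 was at 0.015 and SCG2 at 0.011, and with thinned counts SCG2 was at 0.083 and CD68 at -0.058. The cause was not tested. Calls of MTF1, MYLIP, STEAP1, ABCG4, LYZ and DES were lost in at least 1 alternative, besides CDKN2A and CCL2. BMI1, PCGF3, ALDH3A1 and DLL3, not called, gained a call in 1 to 3 alternatives each, with edgeR adjusted p from 0.018 to 0.047. Pairs of libraries this close give p-values that hold for these RNA preparations, and genes of few counts are limited by depth.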
